A study of Mus musculus with 64 samples.

Results

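The 9 genes described here are the genes of megakaryocytes and blood stem cells that were followed across the series: Itga2b, Pf4, Ppbp, Gp9 and Gp1bb, which mark megakaryocytes and platelets, Kit and Cd34, which mark stem and progenitor cells, and Thpo and Kitl, which encode growth factors for these cells. They were taken by symbol from the 23338 genes of the count files, and all 9 were found. RNA-seq read counts came from 64 mouse samples at 4 stages, labelled C57BL/6 and given as the substrain C57BL/6 J in the study's methods, and the study asked how males and females differ in gene expression through development. There were 12 eight-cell embryos of 2.5 days post coitum (6 male, 6 female), each sequenced singly after PCR amplification of its cDNA. The 4 lines of embryonic stem (ES) cells (2 male, 2 female) were grown in 2i medium, which blocks the MEK and GSK3 kinases. The 24 late-gestation fetal livers were collected at about 18 days post coitum (rounded to whole days). The 24 adult livers came from mice killed at 15 to 20 weeks, and both liver stages had 12 of each sex. No group carried a transgene or a treatment other than the 2i medium and the cytokine LIF, both given to the ES lines. Each ES line came from 1 embryo, and the litter of each fetus is not given in the labels. Eight-cell libraries were made by another protocol than all others, so for these embryos stage and protocol cannot be told apart and their levels were not tested against other stages.

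Before birth the liver is the main blood-forming organ, and megakaryocytes, which shed platelets, ripen there beside the red cell precursors. Thrombopoietin (Thpo), made by hepatocytes, acts on megakaryocytes and stem cells, and stem cell factor (Kitl), made by stromal and endothelial cells, acts through the receptor tyrosine kinase Kit. Around birth, blood formation moves from the liver to the bone marrow, while the adult liver goes on making thrombopoietin.

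Between 1567583 and 10386931 reads per library were counted on genes, with 5145371 to 8499603 in each fetal liver. The adult livers were shallower (1567583 to 4757610 reads), and 7 of them had under 2000000. Levels are given as CPM, reads scaled to 1000000 on genes, on which 3 reads stood at 0.353 to 0.583 CPM in a fetal liver and at 0.631 to 1.91 CPM in an adult one, for counting error only and before TMM scaling. All CPM below are scaled by edgeR's TMM factors unless stated otherwise. The stage labels were checked against marker genes. The summed level of 8 hepatocyte markers was 33468 to 44469 CPM in fetal and 51311 to 71054 CPM in adult livers, against at most 2.04 CPM in ES lines, and 6 pluripotency markers summed to 1839 to 2079 CPM in ES lines, against 2.12 to 6.19 CPM in fetal livers. The 10 erythroid markers summed to 5171 to 7586 CPM in fetal and 53.0 to 357 CPM in adult livers, and their 4 globin genes had at most 33 reads in all fetal livers together.

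The platelet genes lie on several chromosomes of GRCm38 (mm10, GENCODE vM21 gene bounds). Ppbp, the precursor of the platelet chemokine beta-thromboglobulin, spans chr5:90768518-90770063, and Pf4, platelet factor 4, spans chr5:90772435-90773383 on the same strand, 2371 bases further on. Itga2b, the alpha IIb chain of the fibrinogen receptor, spans chr11:102453297-102470122, and Gp9 and Gp1bb, chains of the receptor for von Willebrand factor, span chr6:87778072-87779768 and chr16:18620317-18622403. The annotation places Gp1bb over Sept5 on the same strand, so reads of these genes could have been split or shared in counting. The RefSeq promoter windows (build GRCm38.p6, 250 bases before to 50 after a start) of the 4 platelet genes with the most reads are shown because these genes varied together between fetal livers, as described further on. Capitals mark GATAA, the core bound by GATA factors, and CCGGAA or CAGGAA, cores bound by ETS factors, on either strand.
Ppbp (chr5:90768268-90768567, plus strand): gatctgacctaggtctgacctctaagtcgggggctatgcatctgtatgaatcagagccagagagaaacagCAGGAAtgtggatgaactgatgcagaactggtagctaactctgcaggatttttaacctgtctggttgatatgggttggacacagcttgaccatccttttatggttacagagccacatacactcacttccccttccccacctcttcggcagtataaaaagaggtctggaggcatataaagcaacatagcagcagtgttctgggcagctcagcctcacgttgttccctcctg
Pf4 (chr5:90772185-90772484, plus strand): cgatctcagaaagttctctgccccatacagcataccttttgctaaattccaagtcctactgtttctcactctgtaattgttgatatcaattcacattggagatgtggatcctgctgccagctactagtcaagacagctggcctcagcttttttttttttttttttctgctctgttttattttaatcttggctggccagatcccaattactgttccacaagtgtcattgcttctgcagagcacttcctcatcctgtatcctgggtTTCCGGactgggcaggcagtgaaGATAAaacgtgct
Itga2b (chr11:102469834-102470133, minus strand): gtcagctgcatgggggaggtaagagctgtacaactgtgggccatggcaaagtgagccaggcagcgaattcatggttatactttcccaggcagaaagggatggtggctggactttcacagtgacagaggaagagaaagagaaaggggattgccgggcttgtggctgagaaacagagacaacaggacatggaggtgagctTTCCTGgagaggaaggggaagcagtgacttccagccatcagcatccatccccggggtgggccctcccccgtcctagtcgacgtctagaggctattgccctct
Gp9 (chr6:87777820-87778119, plus strand): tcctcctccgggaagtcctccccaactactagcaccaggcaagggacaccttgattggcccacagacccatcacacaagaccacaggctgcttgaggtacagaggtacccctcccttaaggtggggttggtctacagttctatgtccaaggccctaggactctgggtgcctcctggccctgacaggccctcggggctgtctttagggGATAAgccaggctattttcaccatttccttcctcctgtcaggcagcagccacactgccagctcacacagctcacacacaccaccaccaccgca
The GATAA core began 43 bases before the start of Gp9 and at base 38 after that of Pf4, and it was in the windows of 3 of the 9 genes (Pf4, Gp9 and Cd34). An ETS core began 52 bases before the start of Itga2b, 180 before that of Ppbp and at base 15 after that of Pf4, and 6 of the 9 genes had one in at least 1 window. Counted by window, 3 of the 11 windows of the 9 genes held GATAA and 6 held an ETS core. Among the 32851 promoter windows of all genes, 25.4% held GATAA and 41.4% held an ETS core. These matches describe letters only.

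Each of the 5 platelet genes had at least 11 reads in every fetal liver, and in adult liver they were near or under the level of 3 reads, apart from Itga2b. Adult and fetal livers were compared with edgeR's quasi-likelihood test with sex as a covariate, with a call at a Benjamini-Hochberg adjusted p-value under 0.1 over all genes and an absolute log2 above 0.5. All 9 genes were tested and called. Higher levels in fetal liver were called for 8 of the 9, against 35.3% of the 12875 genes tested, and a higher level in adult liver for 1 of the 9, against 31.7% of all genes. The median log2 (adult/fetal) of the 9 genes was -3.45, beside -0.05 over all genes tested. In whole livers, fewer cells of a type and less RNA per cell cannot be told apart.

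Ppbp had 33.2 to 118 CPM in the 24 fetal livers, with a median of 66.8, and 0 to 1.90 CPM in the 24 adult livers, with a median of 0.686. Every fetal liver had at least 250 reads of Ppbp, whereas 16 of the 24 adult livers had any, 35 reads together. The log2 (adult/fetal) of Ppbp was -6.57 (SE 0.208, edgeR adjusted p = 2.95e-33). Pf4 had 25.2 to 74.4 CPM in fetal livers (median 43.7) and 0 to 2.43 CPM in adult livers (median 0.685), with a log2 of -5.69 (SE 0.172, edgeR adjusted p = 1.23e-35). The lowest fetal liver was 17.4 times the highest adult liver for Ppbp and 10.4 times for Pf4.

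Itga2b kept reads in all 24 adult livers. Its level was 39.2 to 98.9 CPM in fetal livers (median 52.2) and 0.697 to 8.63 CPM in adult livers (median 4.37). The log2 (adult/fetal) was -3.45 (SE 0.117, edgeR adjusted p = 4.01e-33), the smallest fall of the 5 platelet genes. Gp9 had 5.31 to 18.02 CPM in fetal livers (median 9.46), and its 8 adult reads came from 7 of 24 livers. Gp1bb, the lowest of the platelet genes, had 1.46 to 6.46 CPM in fetal livers (median 3.38) and 2 reads in 1 adult liver. The ratio of pooled levels between fetal and adult livers, taken before TMM scaling, was 90.3 for Gp9 (exact 95% interval 45.7 to 209) and 133 for Gp1bb (36.6 to 1099), for counting error only. Both were called in edgeR's test, with adjusted p = 4.44e-29 for Gp9 and 2.30e-23 for Gp1bb. Sept5, which overlaps Gp1bb, had 8.05 ± 1.45 CPM (SD, n = 24) in fetal and 0.978 ± 0.918 CPM (SD, n = 24) in adult livers, and the part of its reads in the values of Gp1bb was not tested.

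**Figure D1:**
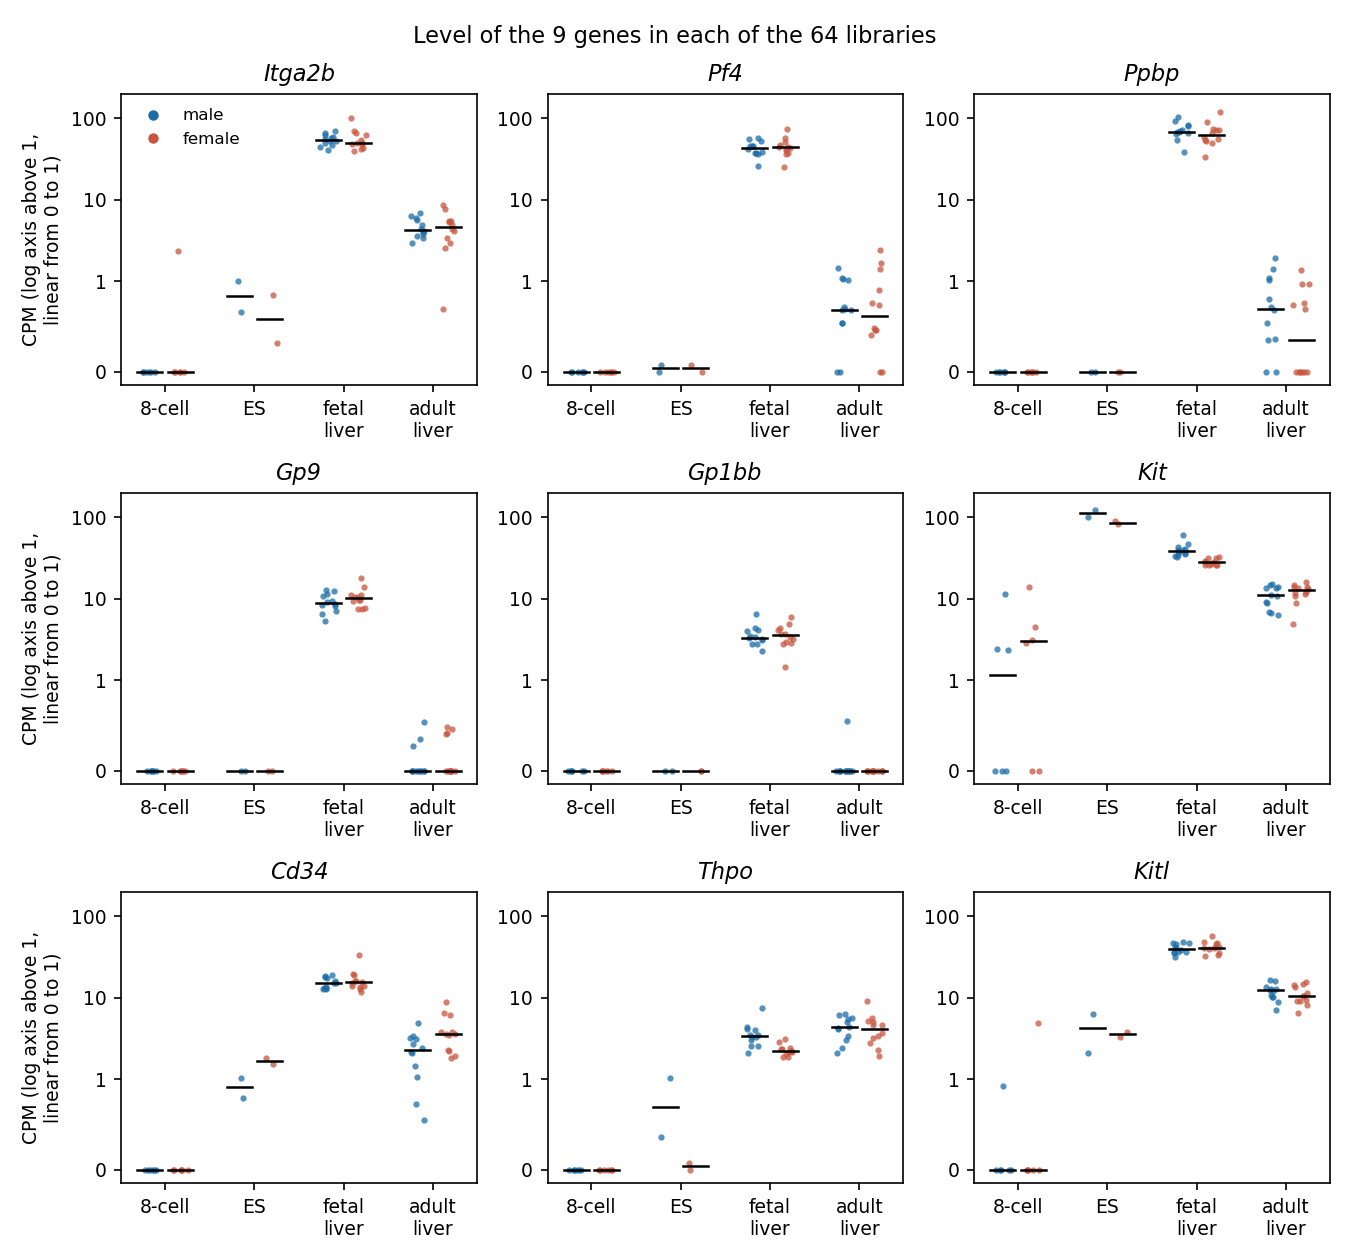
CPM with TMM factors of each of the 9 genes (y axis, linear from 0 to 1 and logarithmic above) in each library (point), by stage and sex (colour), with the median of each group as a bar. Fetal and adult livers do not overlap for any of the 9 genes but Thpo, and the share of all genes without overlap was not counted. Kit is the only one of the 9 with its highest levels in ES lines.

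The stem and progenitor genes were lower in adult liver as well, but to a lesser degree, and both remained measurable there. Kit (chr5:75574916-75656722), the receptor for stem cell factor, had 25.5 to 59.8 CPM in fetal livers (median 31.9) and 4.88 to 16.02 CPM in adult livers (median 11.9). Its log2 (adult/fetal) was -1.47 (SE 0.0952, edgeR adjusted p = 8.06e-21). Cd34 (chr1:194938819-194961279), a surface sialomucin of progenitor and endothelial cells, had 11.8 to 33.1 CPM in fetal livers (median 15.1) and 0.544 to 8.74 CPM in adult livers (median 2.92), with a log2 of -2.25 (SE 0.149, edgeR adjusted p = 2.26e-20). No adult liver reached the lowest fetal liver for either gene. Kit also marks mast cells and Cd34 also marks endothelium. The 6 mast cell markers summed to 2.17 to 7.65 CPM in fetal and at most 0.695 CPM in adult livers, with 1 of the 6 without a read in adult livers. The 8 endothelial markers summed to 540 to 752 CPM in fetal and 481 to 695 CPM in adult livers, none was without reads, and 1 was called higher and 1 lower in adult liver. The part of these cells in the differences was not tested.

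Of the growth factor genes, Kitl was lower in adult liver while Thpo was not. Kitl (chr10:100015630-100100416) had 31.5 to 57.3 CPM in fetal livers (median 40.8) and 6.42 to 16.3 CPM in adult livers (median 11.1), so that the ranges did not overlap. The log2 (adult/fetal) of Kitl was -1.73 (SE 0.0785, edgeR adjusted p = 8.30e-28). Thpo (chr16:20724454-20734511) had 1.86 to 7.47 CPM in fetal livers (median 2.55) and 1.94 to 9.06 CPM in adult livers (median 4.30), and its ranges overlapped almost fully. With TMM factors its log2 (adult/fetal) was 0.62 (SE 0.143, edgeR adjusted p = 8.85e-05). With library totals in place of TMM factors it was 0.05 (edgeR adjusted p = 0.715), a scaling under which the median log2 of all genes tested moved from -0.05 to -0.61 and the calls from 4079 higher and 4543 lower in adult liver to 2368 and 6942. In males alone the log2 of Thpo was 0.32 (edgeR adjusted p = 0.14), and in females alone 0.93 (edgeR adjusted p = 4.44e-05). Thpo shares its locus with Chrd on the opposite strand, which had 2.65 ± 0.686 CPM (SD, n = 24) in fetal and 8.24 ± 1.87 CPM (SD, n = 24) in adult livers, and whether reads were counted by strand is not given in the sources used here.

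The levels of the 9 genes can be ordered per length, as CPM per kilobase of protein-coding exons. The order given is that of the means, and all 9 genes were measured in the same livers. Overlap between livers therefore does not show whether the order held within each liver, which was not tested. In fetal liver Ppbp (63.2 ± 17.8, SD, n = 24) and Pf4 (62.9 ± 14.8, SD, n = 24) came first, with ranges that overlapped. Itga2b (16.004 ± 3.77, SD, n = 24) and Gp9 (11.1 ± 3.07, SD, n = 24) followed, and their ranges overlapped. Kitl (7.28 ± 1.10), Kit (6.47 ± 1.54) and Cd34 (6.12 ± 1.65) had ranges that overlapped, and Gp1bb (1.72 ± 0.517) and Thpo (1.13 ± 0.456) were lowest (all SD, n = 24). In adult liver the order began with Kit (2.18 ± 0.592), Kitl (2.02 ± 0.489) and Thpo (1.64 ± 0.621), which overlapped, and ended with Gp9 (0.138 ± 0.225) and Gp1bb (0.0109 ± 0.0532), again in CPM per kilobase (SD, n = 24). Pf4 (1.08 ± 0.821) and Ppbp (0.552 ± 0.499), first in fetal liver, were sixth and seventh in adult liver.

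ES lines had Kit but almost none of the platelet genes. Kit was at 100 and 122 CPM in the male lines and at 89.6 and 81.5 CPM in the female lines, above every fetal liver. Ppbp, Gp9 and Gp1bb had no read in any of the 4 lines, and Pf4 had 1 read in each of 2 lines. Itga2b was at 1.01 and 0.655 CPM in the male and 0.846 and 0.314 CPM in the female lines, and Cd34 at 0.795 and 1.02 CPM in the male and 1.54 and 1.81 CPM in the female lines. Kitl was at 6.29 and 2.11 CPM in the male lines and at 3.77 and 3.30 CPM in the female lines, each below the lowest fetal liver. Thpo had 5 and 14 reads in the male lines against 1 and 0 in the female lines.

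In edgeR's test of the 4 ES lines against the 24 fetal livers, without a covariate, all 9 genes were called. Higher levels in fetal liver were called for 8 of the 9, against 40.5% of the 14333 genes tested, and a lower level in fetal liver for Kit alone, against 36.2%. The log2 (ES/fetal) of Kit was 1.63 (SE 0.142, edgeR adjusted p = 3.27e-12). That of Cd34 was -3.52 (SE 0.240, adjusted p = 4.82e-15), that of Kitl -3.30 (SE 0.185, adjusted p = 3.33e-17), that of Thpo -2.85 (SE 0.452, adjusted p = 7.70e-07) and that of Itga2b -6.14 (SE 0.284, adjusted p = 3.34e-19). For genes without reads in ES lines a lower bound was set at 3 reads over the 4 lines, before TMM scaling. By this bound fetal liver had at least 1030-fold more Ppbp, at least 147-fold more Gp9 and at least 54.2-fold more Gp1bb. The median log2 (ES/fetal) of the 9 genes was -6.14, beside -0.04 over all genes tested. The ES and adult liver contrasts share the fetal livers.

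**Figure D2:**
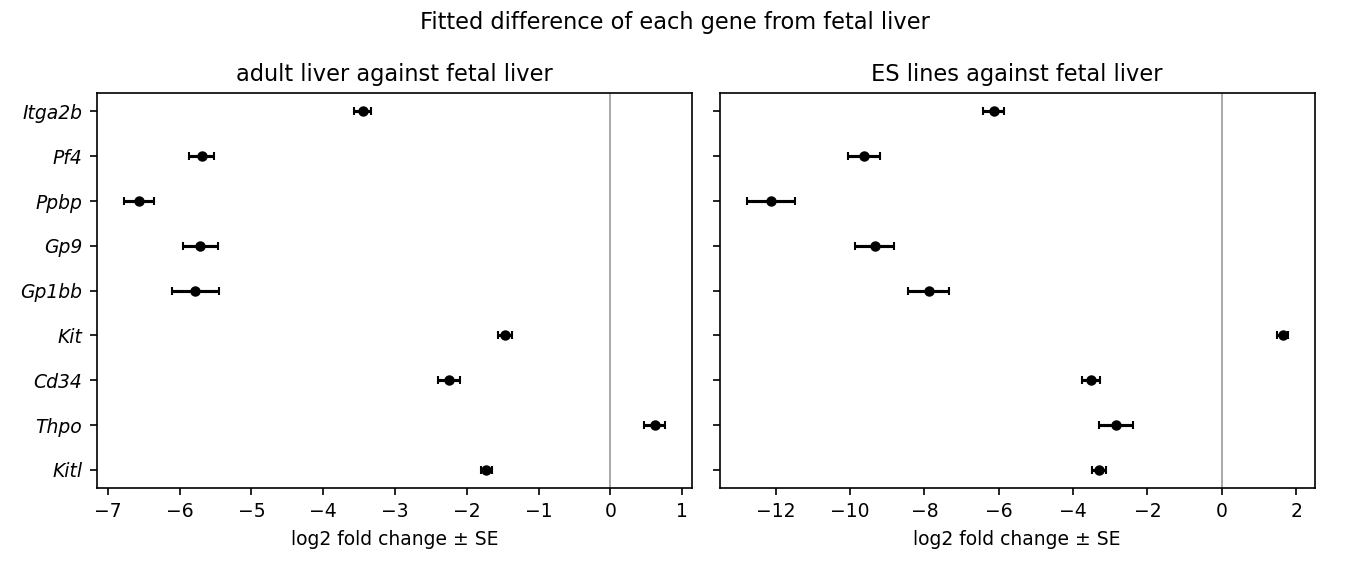
log2 fold change from fetal liver (x axis, point, with its standard error as a bar) of the 9 genes in adult liver (left) and in ES lines (right), from edgeR. Kit lies at -1.47 in adult liver and at 1.63 in ES lines, and Thpo at 0.62 and -2.85; values of genes without reads in ES lines depend on edgeR's prior count.

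Eight-cell embryos had reads of 3 of the 9 genes. Pf4, Ppbp, Gp9, Gp1bb, Cd34 and Thpo had no read in the 12 embryos, which allows up to 0.0365 CPM over the group at 3 reads. Kit had reads in 7 of 12 embryos, with 11.4, 2.31 and 2.42 CPM in male embryos 4, 5 and 6 and 4.53, 2.87, 3.11 and 13.8 CPM in female embryos 8, 9, 11 and 12. Kitl was found in male embryo 5 (0.922 CPM) and female embryo 7 (4.85 CPM), and Itga2b in female embryo 11 alone (2.36 CPM, 19 reads). Male and female embryos overlapped for Kit, the only one of the 9 genes that passed edgeR's expression filter, and its log2 (male/female) of -0.62 (SE 1.51, edgeR adjusted p = 1.00) was not called.

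Between male and female fetal livers, Kit and Thpo differed while the platelet genes did not pass the test. Kit had 32.0 to 59.8 CPM in the 12 male livers (median 38.3) and 25.5 to 31.9 CPM in the 12 female livers (median 27.9). Each male liver was above each female liver. The log2 (male/female) of Kit was 0.53 (SE 0.0800, edgeR adjusted p = 1.55e-05). Thpo had 2.08 to 7.47 CPM in males (median 3.37) and 1.86 to 3.06 CPM in females (median 2.21), from 14 to 59 and 14 to 24 reads, and 8 of 12 males exceeded every female. Its log2 (male/female) was 0.71 (SE 0.158, edgeR adjusted p = 0.00128). These 2 genes were the called ones among the 9, against 4.64% of the 12930 genes tested. The other 7 had log2 values from -0.17 (Gp9, SE 0.143, edgeR adjusted p = 0.377) to 0.15 (Ppbp, SE 0.160, edgeR adjusted p = 0.511), and their male and female ranges overlapped.

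The male fetal libraries also differed from the female ones in how many reads fell outside genes. This share of the counted reads was 39.9% to 49.0% in males and 34.1% to 38.1% in females, without overlap, so that it and sex cannot be told apart. With the share as a covariate, edgeR called none of the 9 genes, of which 0 had an unadjusted p under 0.05, and 9 of the 13782 genes tested, of which 784 had one. The log2 (male/female) was then 0.14 for Kit (edgeR adjusted p = 0.973) and -0.18 for Thpo (edgeR adjusted p = 0.991). Male liver 11 had the highest share (49.0%) together with the highest Kit (59.8 CPM) and Thpo (7.47 CPM). Without it the log2 of Kit was 0.46, under the limit of 0.5 (edgeR adjusted p = 1.83e-06), and only Thpo was called.

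The share was set against Kit and Thpo within sexes too. For Kit Pearson's r over the 24 livers, centred within sex, was 0.53 (two-sided permutation p = 0.0378, adjusted over the 9 relations 0.113) and Spearman's rho 0.07 (permutation p = 0.756, adjusted 0.879). For Thpo r was 0.62 (permutation p = 0.0145, adjusted 0.113) and rho 0.13 (permutation p = 0.546, adjusted 0.879). Separately, r was 0.75 for Kit and 0.82 for Thpo in the 12 males, and -0.44 and -0.36 in the 12 females. Without the 2 livers farthest in the share, r was 0.17 for Kit and 0.29 for Thpo, so that both relations rest on those livers.

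**Figure D3:**
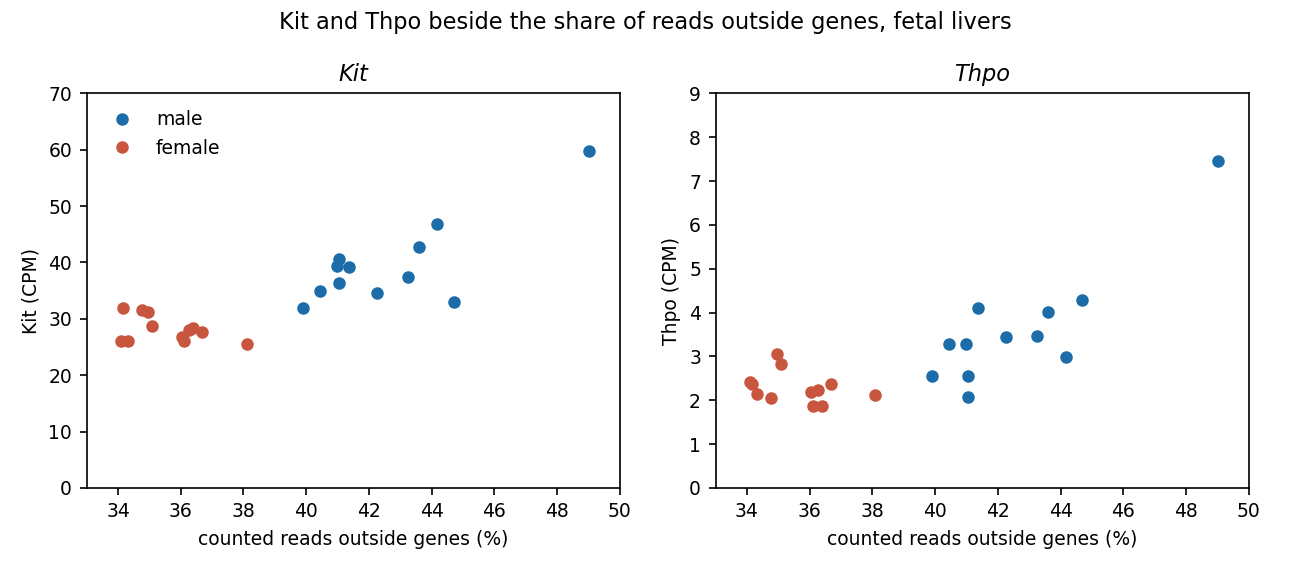
Kit and Thpo (y axes, CPM) against the share of counted reads outside genes (x axis, %) in the 24 fetal livers, coloured by sex. Male and female livers are apart on the x axis (39.9% to 49.0% and 34.1% to 38.1%), and male liver 11 lies at the top right of both panels.

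In adult liver Kit and Kitl passed edgeR's expression filter for the test between the sexes, and the other 7 genes did not. The mean level of Kit was 10.8 ± 3.26 CPM in 12 males and 12.04 ± 2.97 CPM in 12 females (SD), and the ranges overlapped. Kitl had 6.96 to 16.3 CPM in males (median 12.3) and 6.42 to 15.5 CPM in females (median 10.4). Of these 2 genes neither was called, by edgeR or by DESeq2, and 0 had an unadjusted p under 0.05, with log2 (male/female) of -0.19 for Kit (SE 0.162, edgeR adjusted p = 0.420) and 0.08 for Kitl (SE 0.144, edgeR adjusted p = 0.743), against 9.49% of the 10372 genes tested. In the test of the stage by sex interaction over the 48 livers, 2 of the 9 genes were called, against 13.7% of 13026 genes. For Kit the log2 (male/female) was lower in adult than in fetal liver by a log2 of -0.68 (SE 0.173, edgeR adjusted p = 0.00234), and for Thpo by -0.60 (SE 0.273, edgeR adjusted p = 0.0957). The call of Thpo was lost without the 7 adult livers under 2000000 reads (-0.37, edgeR adjusted p = 0.399) and without the expression filter (-0.60, edgeR adjusted p = 0.14).

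The spread between the 24 fetal livers, each from a separate fetus, differed between these genes. The coefficient of variation of the CPM within sexes was 28.5% for Ppbp, 24.02% for both Pf4 and Itga2b, 27.2% for Gp9 and 30.7% for Gp1bb. It was 16.5% for Kit, 15.3% for Kitl, 27.2% for Cd34 and 34.1% for Thpo. Counting error at these depths was lowest for Ppbp (4.44%) and highest for Gp1bb (19.4%) and Thpo (21.4%). Single livers carried much of 3 of these values. Without male liver 11 the coefficient was 19.8% for Thpo and 10.6% for Kit, and without female liver 15 it was 15.8% for Cd34, whereas leaving out any 1 liver moved that of no platelet gene by over 1.5 times. For Ppbp edgeR's estimate of the variation beyond counting was 25.1%, higher than for 94.3% of the genes tested between fetal livers, and for Kit it was 12.8%, higher than for 68.1%.

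Several extremes of the platelet genes fell in the same livers, and others did not. Female liver 13 had the highest level of all fetal livers for Ppbp (118 CPM), Pf4 (74.4 CPM), Itga2b (98.9 CPM) and Gp9 (18.02 CPM). Among males, liver 11 was lowest for the same 4 genes, with 38.2 CPM of Ppbp, 25.7 of Pf4, 40.2 of Itga2b and 5.31 of Gp9. Female liver 24 was the lowest female for Ppbp (33.2 CPM), Pf4 (25.2 CPM), Itga2b (39.2 CPM) and Gp1bb (1.46 CPM). The highest males were less shared, with liver 9 for Itga2b and Pf4, liver 4 for Ppbp and Gp1bb and liver 1 for Gp9. Gp1bb was highest among females in liver 19 and lowest among males in liver 8, and Gp9 was lowest among females in liver 17. Cd34 was highest in another liver, female 15, at 33.1 CPM, next to a median of 15.3 CPM in females. That liver was not extreme for any platelet gene, with 65.1 CPM of Ppbp and 44.2 CPM of Pf4.

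Over the 24 livers, log2 CPM of the platelet genes, centred within sex, were correlated in all 10 pairs. Pearson's r was highest for Pf4 and Ppbp, at 0.96, with a Spearman's rho of 0.95 (two-sided permutation p = 1e-05 for each, the smallest that 100000 permutations can give, and adjusted over the 36 pairs of the 9 genes 6e-05 and 0.00012). The lowest of the 10 was Gp9 and Gp1bb (r = 0.50, permutation p = 0.0161, adjusted 0.058, and rho = 0.44, permutation p = 0.0385, adjusted 0.139). The median r of the 10 pairs was 0.80. In the 12 males alone r ran from 0.48 to 0.94 and in the 12 females alone from 0.52 to 0.97. Without the 2 livers farthest from the median of the first gene of a pair, r ran from 0.47 to 0.93, and without male liver 11 and female liver 13 from 0.47 to 0.93. All these livers share a protocol, and the part of depth, tissue sampling and RNA in the correlations was not tested.

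Pairs of a platelet gene with Kit, Cd34, Thpo or Kitl had lower r over the 24 livers, with values that depended on sex and on single livers. Their 20 values of r ran from -0.24 to 0.23, with a median of -0.06, and none had an adjusted permutation p under 0.1. Kit with Itga2b, Pf4 and Ppbp had r of -0.55, -0.60 and -0.61 in the 12 males and of 0.50, 0.41 and 0.41 in the 12 females. Without male liver 11 and female liver 13, Thpo had r of 0.55 with Itga2b (permutation p adjusted over the 36 pairs 0.0153), 0.62 with Pf4 (permutation, adjusted 0.00500), 0.59 with Ppbp (permutation, adjusted 0.00661) and 0.44 with Gp1bb (permutation, adjusted 0.0843). These 4 pairs then passed beside the 10 platelet pairs. The 2 livers were chosen after seeing the data, so these p-values are descriptive only. Male liver 11 had the highest Thpo of all and the lowest Itga2b, Pf4, Ppbp and Gp9 of the males. Leaving it out therefore favours a higher r of Thpo with these genes. Of the 6 pairs among Kit, Cd34, Thpo and Kitl, only Kit and Thpo passed, with r = 0.57 (permutation p = 0.0265, adjusted 0.0866) and rho = 0.25 (permutation p = 0.248, adjusted 0.470). Without the 2 livers farthest in Kit this r was 0.05, so that the relation rests on those livers. Kit and its ligand gene Kitl had r = -0.05 (permutation p = 0.824, adjusted 0.890).

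**Figure D4:**
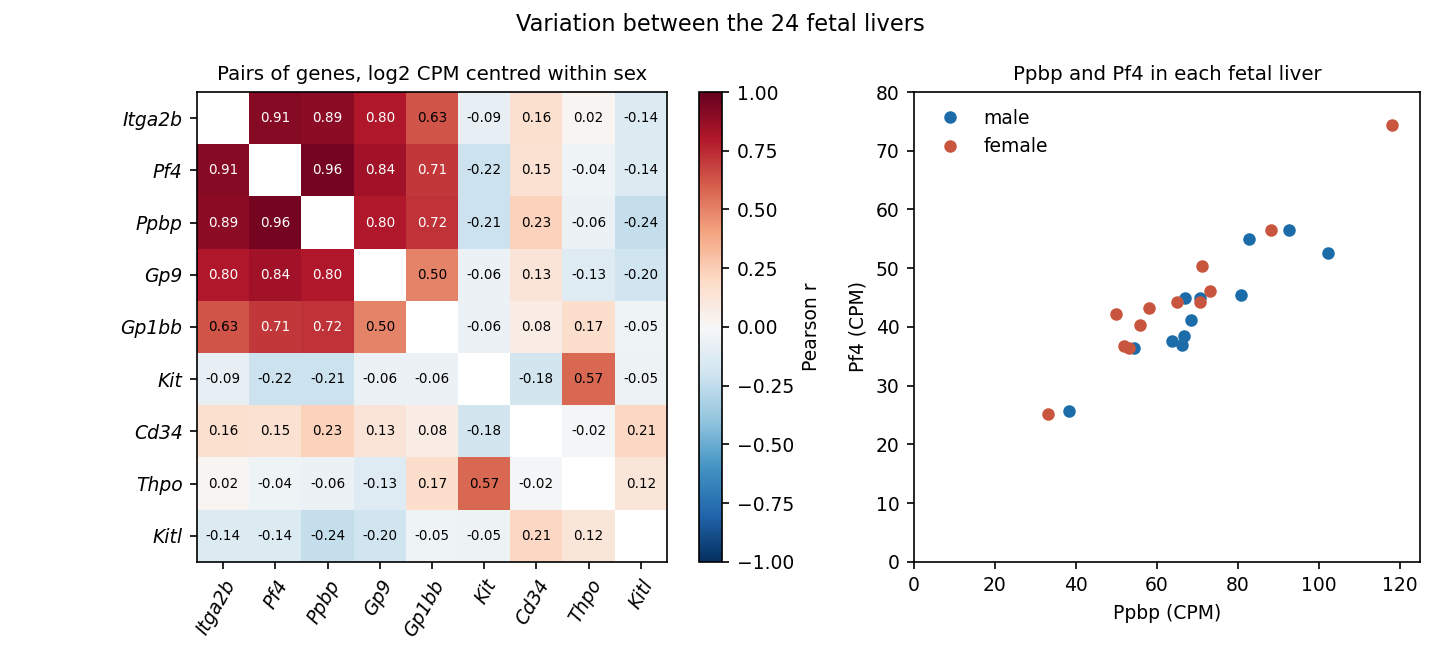
Left, Pearson's r (colour and number) of log2 CPM for each pair of the 9 genes over the 24 fetal livers, centred within sex. Right, Pf4 against Ppbp (CPM) in each fetal liver by sex. The 10 pairs of platelet genes have r from 0.50 to 0.96, and female liver 13, at 118 CPM of Ppbp and 74.4 CPM of Pf4, is the point at the top right.

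The genes whose pattern over the fetal livers was most like that of the platelet genes were sought among the 11141 genes with at least 5 CPM on average. Likeness was Pearson's r with the mean z score of the 5 platelet genes, each of which was left out of the score when it was itself ranked. Pf4 (r = 0.957) and Ppbp (r = 0.945) came first, then Tubb1 (r = 0.937), Treml1 (r = 0.935) and Itgb3 (r = 0.934). Itga2b ranked 10th (r = 0.894) and Gp9 37th (r = 0.795), and Gp1bb was too low to be ranked. Other genes were nearest to the other members. For Kit they were Rtp3 (r = 0.890), Spen (r = 0.879) and Gse1 (r = 0.876), and for Cd34 they were Sparc (r = 0.886), Vcan (r = 0.852) and Fstl1 (r = 0.833). Thpo was nearest to Nfia (r = 0.803), Rfx7 (r = 0.786) and Itgav (r = 0.784), and Kitl to Snx7 (r = 0.825), Gcap14 (r = 0.812) and Cyb5b (r = 0.795). These r values describe 24 livers and carry no test, and none is given without single livers. Male liver 11 carried much of the spread of Kit and Thpo, and female liver 15 much of that of Cd34. How far the nearest genes of these members rest on those livers was not tested.

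Other genes of the same cells and pathways were counted from lists. Of 20 other megakaryocyte and platelet genes, 18 were tested between adult and fetal liver and all 18 were called lower in adult liver, against 35.3% of all genes tested, with a median log2 of -4.44. Examples with the highest levels were Nfe2, a transcription factor of platelet formation, at 139 CPM on average in fetal and 0.936 CPM in adult livers (log2 -7.05, SE 0.141), and Plek, a platelet substrate of protein kinase C, at 104 and 9.71 CPM (log2 -3.33, SE 0.114). Itgb3, which encodes the partner chain of Itga2b, had 94.2 and 11.9 CPM (log2 -2.89, SE 0.110), and Vwf, von Willebrand factor, which endothelium also makes, 53.7 and 14.2 CPM (log2 -1.79, SE 0.105). The summed level of the 20 genes was 517 to 936 CPM in fetal and 49.1 to 95.7 CPM in adult livers.

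Of 20 other stem and progenitor genes, 17 were tested, of which 15 were called lower and 2 higher in adult liver, against 35.3% and 31.7% of all genes, with a median log2 of -1.93. The transcription factor genes Tal1 (270 and 2.27 CPM on average, log2 -6.83, SE 0.0982), Lmo2 (172 and 6.69 CPM, log2 -4.57, SE 0.0729) and Myb (64.9 and 0.0911 CPM, log2 -9.01, SE 0.152) are also used by red cell precursors, and Prom1, which encodes the surface protein CD133, had 91.5 and 8.59 CPM (log2 -3.43, SE 0.188). The 2 genes called higher in adult liver, named after their values were seen, were Ly6a (log2 4.02, SE 0.172) and Hlf (log2 1.17, SE 0.101). All 6 erythroid markers tested were called lower in adult liver, again against 35.3% of all genes, with a median log2 of -8.19, and the part of red cell precursors in the values of shared genes was not tested.

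Genes of cytokine signalling in these cells were called about as often as all genes were. Of 15 genes tested, 4 were called higher and 6 lower in adult liver, against 31.7% and 35.3% of all genes, with a median log2 of -0.21, so that the counts show nothing particular to this list. Jak2, a kinase of cytokine receptors, was lower in adult liver (138 and 54.8 CPM on average, log2 -1.22, SE 0.0497), and Stat5b, a transcription factor it activates, was higher (91.7 and 143 CPM, log2 0.75, SE 0.0428). Pik3r1, a regulatory subunit of PI3-kinase (log2 0.33, SE 0.0476), and Ptpn11, the phosphatase SHP2 (log2 0.01, SE 0.0330), were not called. All log2 values of these lists come from the same edgeR fit.

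**Figure D5:**
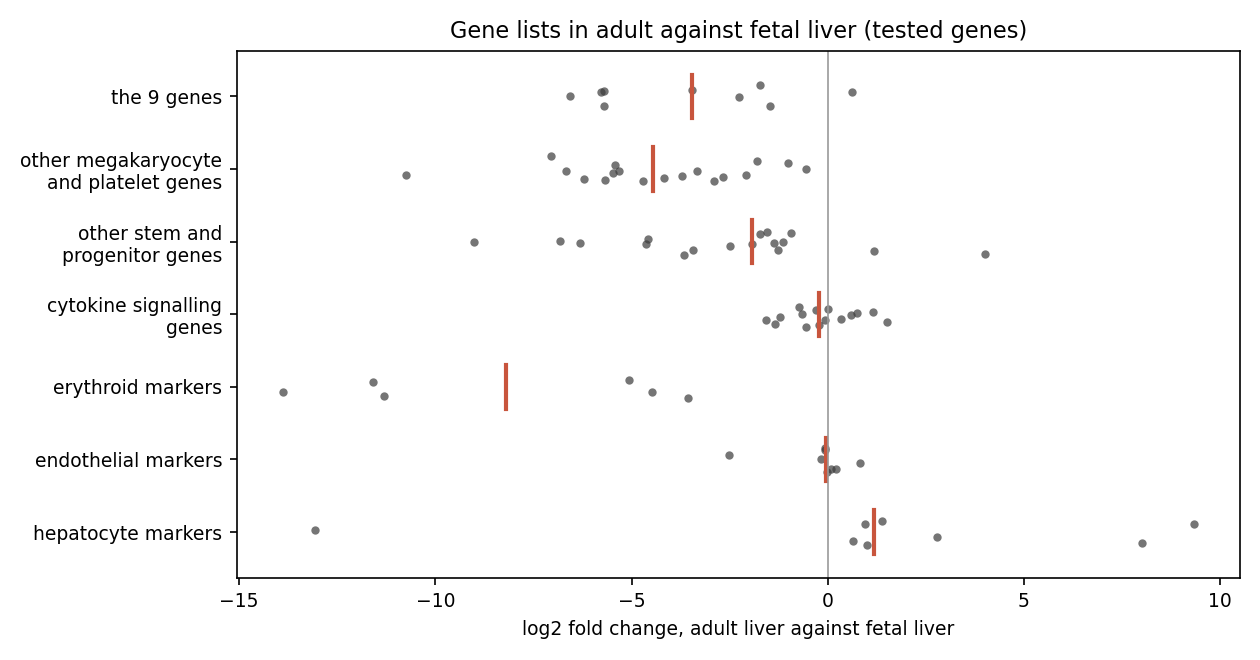
log2 fold change of adult against fetal liver (x axis) of each tested gene (point) in the 9 genes, 3 lists and 3 sets of cell type markers (rows), with the median of each as an upright bar. The medians are -3.45, -4.44 and -1.93 for the 9 genes, the other megakaryocyte genes and the other stem cell genes, and -0.21 for the signalling genes.

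In the comparison of male and female fetal livers, 2 of the 18 tested stem cell genes and 3 of 15 signalling genes were called, against 4.64% of all genes, and these 5 were higher in males. They are named here after their values were seen. Runx1, a transcription factor of blood stem cells, had a log2 (male/female) of 0.78 (SE 0.0902, edgeR adjusted p = 4.61e-07), and Hlf, another transcription factor, one of 0.72 (SE 0.0894, edgeR adjusted p = 1.12e-06). The signalling genes were Cbl (0.87), Cblb (0.59) and Sos1 (0.68), on the same scale. The medians of these lists were 0.02 and 0.03, beside -0.03 over all genes tested, where 493 genes were called higher and 107 lower in males. The share of reads outside genes moved with sex here too, and the part of each in these calls cannot be told apart. With the share as a covariate, edgeR called 9 of the 13782 genes tested, against 600 of 12930 without it. The values of Runx1, Hlf, Cbl, Cblb and Sos1 in that fit are not given here.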

How the data were processed

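The 9 genes and the lists were chosen with earlier results of these data known. The authors deposited raw read counts per gene, which HTSeq made after alignment to mm10 with TopHat2 2.0.4 and Bowtie2 2.1.0 (SAMtools 0.1.18, per the submitters' processing notes) and removal of duplicates with Picard. The HTSeq strand setting is not given in the sources used here. Rows that name no gene (28.0% to 73.2% of a file's total) were kept out of library sizes. Counts were fitted with edgeR 4.0.16 in R 4.3.3 (TMM, filterByExpr, robust quasi-likelihood test, Benjamini-Hochberg adjustment over all genes) and called at an adjusted p under 0.1 and an absolute log2 above 0.5. DESeq2 1.42.0 was an alternative. The fits were tested on simulated data. Log2 CPM used a pseudocount of 0.5, and Python 3.11.15 computed the correlations. By rule, at most 4 genes of a list were named, those with the highest mean CPM. Ly6a, Hlf, Runx1, Cbl, Cblb and Sos1 fell outside this rule and were named for their calls. Replicate numbers did not pair the livers, since the deviations of the 24 same-numbered fetal and adult livers correlated at most at 0.0819. Spi1 was matched as Sfpi1. One result for a list is not reported here.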

Additional observations from a re-analysis of the deposited data

Results flagged for a closer look

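In eight-cell embryos, each of the 5 sets of 6 embryos of a sex that had any read of one of the 9 genes held 1 embryo apart from the others by Dixon's criterion at 95%. In 3 of the 5 a single embryo had reads, so that the criterion was met by construction. In the sets of Kit, 3 of 6 male and 2 of 6 female embryos had no read. The rate of about 1 in 20 groups that chance gives can therefore not be taken to hold for any of the 5 sets. For Kit the embryos apart were male embryo 4 at 11.4 CPM (101 reads, next embryo 2.42 CPM) and female embryo 12 at 13.8 CPM (86 reads, next embryo 4.53 CPM). Male embryo 5 had 0.922 CPM of Kitl (6 reads) and female embryo 7 had 4.85 CPM (36 reads), where the other embryos of their sex had none. Female embryo 11 had 2.36 CPM of Itga2b (19 reads), where the other females had none.

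The sex difference changed between fetal and adult liver for Kit, by a log2 of -0.68 (edgeR adjusted p of the interaction 0.00234), and for Thpo, by -0.60 (edgeR adjusted p 0.0957). In the fetal livers the share of reads outside genes differed between the sexes without overlap, and its part in both values was not tested.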

How the results depend on the processing

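All 9 genes were called between adult and fetal liver and between ES lines and fetal liver under most alternatives, and the alternatives to these comparisons changed no direction of a called gene. Between adult and fetal liver 8 to 9 were called, with Thpo lost under library totals, in males only and without adult livers under 2000000 reads, and Gp1bb not tested in females only. The replicate numbers gave no pairing (correlations of -0.160 to 0.0819 over 24 pairs, 0 of 24 livers closest to their own number), and with the replicate block 9 genes were called in both comparisons. Without each ES line in turn 9 were called. Between male and female fetal livers 2 were called, 1 to 2 without each liver in turn (1 without male liver 11), and 0 with the share of reads outside genes as a covariate, where Thpo changed sign (-0.18), the cause of which was not tested. Between adult sexes 0 genes were called by edgeR and by DESeq2, 0 without each liver in turn, and 1 without the expression filter (Cd34, log2 (male/female) -0.75, adjusted p 0.0705), since more genes were then tested. For the interaction 2 were called in the main fit, 3 with DESeq2, 1 without the filter and 1 without the shallow adult livers. Between livers, 11 of 36 pairs passed. With the 12 male livers only 6 passed and with the 12 female livers only 11, and the cause of this difference was not tested. Without male liver 11 and female liver 13, 14 passed, 4 of them pairs of Thpo with a platelet gene. In females only Gp9 and Kit changed sign (r = 0.64), as did Pf4 and Thpo (r = 0.62) and Ppbp and Thpo (r = 0.59) without male liver 11 and female liver 13, an alternative chosen after seeing the data, as were the library totals and the omission of single livers; the cause was not tested.

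Over all genes, the calls between fetal sexes went from 600 to 1057 without the filter and 9 with the covariate, those between adult sexes from 984 to 1518 without the filter, and those between embryos from 24 to 64 with DESeq2. At 0 to 22 reads per adult liver, the platelet genes were under the expression filter between adult sexes. Without it their log2 (male/female) ran from -0.27 (Gp9, SE 0.646) to 1.12 (Gp1bb, SE 0.615), with edgeR adjusted p from 0.296 to 0.993.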
